A study of Mus musculus with 24 samples.

Results

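The comparison described here is between the distal and the proximal end of the maxilla, the upper jaw, of control mouse embryos at embryonic day 14.5. It rests on the 3 arrays labelled control distal maxilla and the 3 labelled control proximal maxilla, 6 of the 24 arrays of the study, chosen by these labels and not by any measured value. The study profiled both jaws of embryos that had lost Alk5, a TGF-beta receptor also named Tgfbr1, in cells with a history of Wnt1-Cre, together with control littermates. Wnt1-Cre acts in the neural crest lineage. The parents were Wnt1cre;Alk5fl/+ and Alk5fl/fl mice, so every embryo, controls included, inherited at least 1 floxed Alk5 allele, and which controls also carried the driver is not stated in the labels. The cleft palate and calvarial defect of mutants told them from their littermates, and the background strain was C57B6. Each jaw was cut into a distal and a proximal end, which the labels call distal bone and proximal bone. The study thus had 8 groups, each of 3 arrays. Whether such a trio stands for 3 embryos is not stated. The p-values measure the spread between arrays within groups, pooled over all 8 groups, and not that of the 6 maxilla arrays alone.

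The maxilla grows out of the maxillary prominence, whose mesenchyme comes largely from cranial neural crest and is covered by surface and oral ectoderm. Crest cells at different positions express different sets of homeobox, T-box and forkhead genes, and ectoderm and mesenchyme exchange Wnt, BMP, FGF and hedgehog signals while whisker follicles, tooth germs and the palate form. The surface ectoderm stratifies in this period and turns on keratins, desmosomal cadherins and genes of the cornified layer.

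Levels are log2 values after RMA, a normalization that combines the probes of a probe set into a single value. Levels under 6.33 to 6.47, the 40th percentile of the arrays, are called background here. Each gene is given by its brightest probe set, and dimmer ones could differ less: by 0.84 to 1.62 in place of 2.41 for Trp63, by -1.32 to -0.03 in place of -1.67 for Pax6, and by -0.38 in place of -2.67 for Ret. Some dimmer ones differed more, by 4.07 in place of 2.98 for Lor and by -1.16 in place of -0.54 for Ccn1. A log2 difference against a group in the background can understate the true one, so folds are given only where both group means lay above 6.47. Distal array 3 stood apart among the 6 arrays: its mean correlation with the other distal arrays was 0.990, against 0.992 for distal 1 and distal 2 and 0.993 for each proximal array. Distal 1 and distal 2 correlated about as well with the mutant distal maxilla (0.993 and 0.992) as with their own group. At each end, array 1 had high Xist with Y-linked transcripts at background, and arrays 2 and 3 the reverse, so the 3 arrays of an end held RNA of more than 1 source. In bulk tissue, fewer cells of a type and less RNA per cell cannot be told apart.

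Of 13942 genes tested, 1518 (10.9%) differed between the ends at an adjusted p under 0.05 in limma's moderated test with Benjamini-Hochberg adjustment, and these are referred to as called. Of them, 683 (4.9% of the genes tested) were higher in the distal end and 835 (5.99%) were lower. The log2 difference was at least 1 for 449 called genes (3.22%), 246 (1.76%) of them higher and 203 (1.46%) lower. The distal and proximal arrays did not overlap for 3542 of the genes tested (25.4%), and for 1472 of the 1518 called. The leading genes of each direction were chosen among called genes without overlap, so their lack of overlap is no further support. The call held with each of the 6 arrays left out in turn for 584 genes (4.19%), 397 higher and 187 lower. A call said to hold throughout is 1 that held in these 6 fits. Without distal 3, 699 genes were called, 473 higher and 226 lower. Without proximal 1 the count was 870, and without proximal 2 it was 999. When limma was fitted to the 6 arrays alone, with their own spread, it was 841. For the gene lists below, the count obtained without an array is given where it differed from the full count by more than 1.5 times. Each list's counts stand beside the shares of all genes tested, 4.9% higher and 5.99% lower. A list near these shares is not set apart by its count. Some genes, among them Dkk4, Shh and Aldh1a1, are on more than 1 list, so the counts of different lists are not separate evidence.

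The genes with the largest positive differences belonged to stratified, cornifying epithelium. Those with the largest negative differences were mostly genes of skeletal muscle and of neurons. Them5, a thioesterase gene, read 10.10, 9.05 and 10.88 distally and 4.54, 4.21 and 5.24 proximally, a difference of 5.35 ± 0.54 (SE, adjusted p = 2.62e-06). The 3 distal arrays lay far above background and the 3 proximal arrays below it. Dimmer probe sets of Them5 differed by 3.33 and 0.43, the latter in the background at both ends (4.88 distally and 4.45 proximally). Sprr1a, a small proline-rich precursor of the cornified envelope, read 11.84, 10.34 and 12.02 distally and 6.46, 5.88 and 6.94 proximally (4.98 ± 0.45, adjusted p = 7.5e-07). Dsg1a, a desmosomal cadherin of the upper epidermis, read 9.69, 8.74 and 10.49 distally and 4.58, 4.52 and 5.46 proximally (4.79 ± 0.46, adjusted p = 1.74e-06). In each of these genes distal 2 was the lowest distal array and proximal 3 the highest proximal array, and the groups were still far apart.

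In the other direction, Shisa3, a gene of the Shisa family of membrane proteins, read 5.45, 6.97 and 5.61 distally and 9.16, 9.92 and 8.37 proximally, a difference of -3.14 ± 0.42 (adjusted p = 5.24e-05). Tnnc2, the troponin C of fast skeletal muscle, read 6.48, 5.60 and 7.20 distally and 9.66, 11.32 and 8.81 proximally (-3.51 ± 0.75, adjusted p = 0.00438). The groups did not overlap in either gene, and the proximal arrays of Tnnc2 spread widely with proximal 2 at the top. The calls of these 5 genes held with each of the 6 arrays left out.

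**Figure D1:**
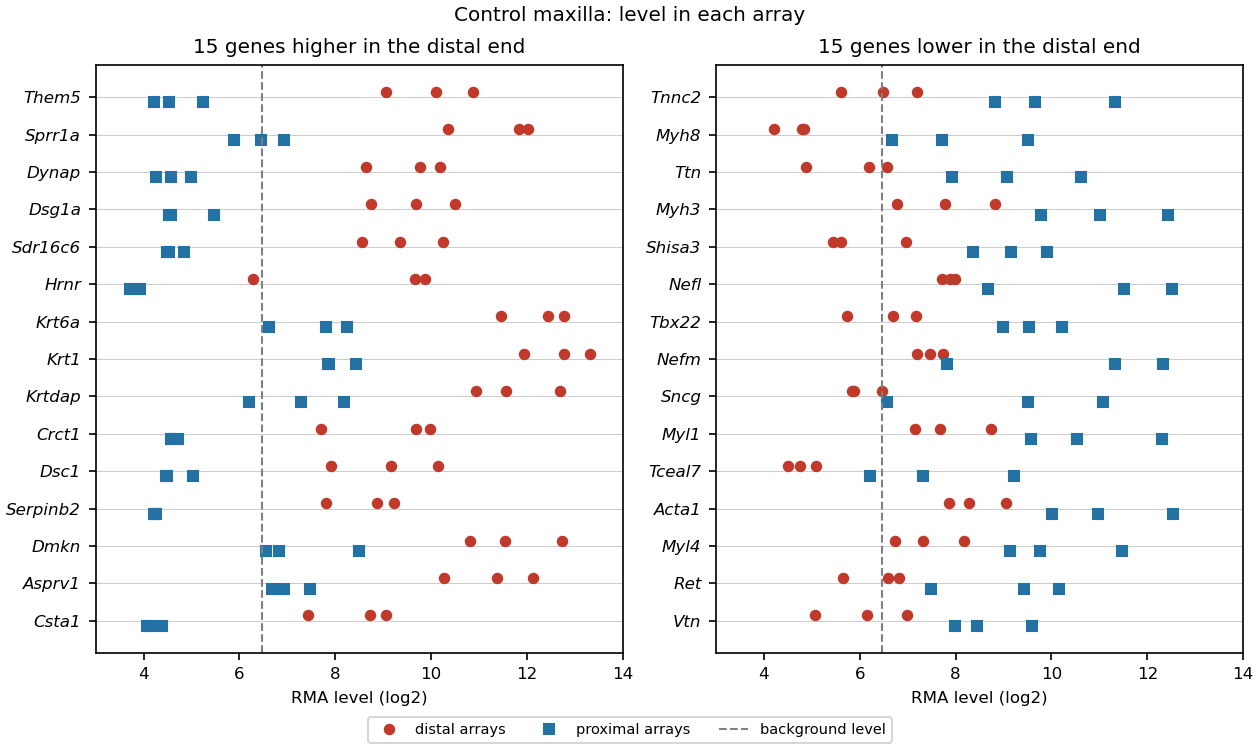
Log2 RMA level (x axis) of the 15 called genes with the largest differences in each direction whose distal and proximal arrays do not overlap, with 1 point per array, distal and proximal arrays marked apart, and the background level as a dashed line. Them5, Sprr1a and Dsg1a lie far to the right in the distal arrays, and the proximal arrays of muscle and neuronal genes such as Tnnc2 are widely spread.

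Genes of epithelial differentiation were higher distally as a group. On a list of 41 cornified envelope and desmosome genes, 37 had a probe set of their own and 32 passed the filter on low levels. Of these, 29 were higher distally and 0 lower, with a median log2 difference of 2.51, beside a median of -0.02 over all genes tested. Their mean level was 9.73, 8.94 and 10.32 in distal arrays 1 to 3 and 7.03, 6.86 and 7.26 in proximal arrays 1 to 3, so every distal array lay above every proximal one. Krtdap, a gene of differentiating keratinocytes, had means of 11.73 ± 0.89 (SD, n = 3) distally and 7.22 ± 0.999 proximally, a 22.7-fold difference (adjusted p = 3.01e-05). Asprv1, the epidermal protease that processes filaggrin, was 18.8-fold higher (2.52e-06). The desmosomal genes Dsc1 and Pkp1 were higher by 4.42 ± 0.45 and 3.19 ± 0.36 on the log2 scale, and Lor, the main protein of the cornified envelope, by 2.98 ± 0.35. The exceptions were Sprr3, Tgm3 and Sprr2d, whose differences of 0.83, 0.44 and 0.18 were not called. Outside the list, Dmkn, a secreted product of keratinocytes, was 21.1-fold higher (0.000109). Hrnr, Crct1 and Csta1, which also belong to the epidermal differentiation program, differed by 4.77, 4.49 and 4.20. These calls held with every single array left out.

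Most of the keratins were higher distally. Of 19 tested, 15 were higher distally and 0 lower, with a median difference of 2.17. Krt14, which pairs with Krt5 in the basal layer, read 12.08, 11.64 and 12.85 distally and 9.92, 8.29 and 9.83 proximally, 7.19-fold higher (adjusted p = 0.000125), and Krt5 was 8.85-fold higher (3.7e-05). Both ends had Krt14 above background and the groups lay apart. Krt1, the partner of Krt10 in the layers above, read 12.76, 11.94 and 13.32 distally and 7.86, 7.84 and 8.42 proximally, 24.8-fold higher (4.63 ± 0.41, 7.13e-07). Krt10 was 13.4-fold higher (2.56e-06), Krt15, another basal keratin, 8.29-fold (2.62e-05), and Krt6a, a keratin of appendages and activated epidermis, 25.4-fold (6.36e-06). The other probe sets of Krt6a differed by 3.08 and 2.81 on the log2 scale, less than the 4.67 of the brightest. These calls too held throughout. Among keratins of simple epithelium, Krt7 was 2.32-fold higher (0.0046), which held throughout, and Krt19 2.88-fold (0.00877), a call that ended without distal 3 or proximal 2 (adjusted p up to 0.0677). Krt8 and Krt18, a further pair of simple epithelium, were not called and differed by 0.14 ± 0.36 (adjusted p = 0.864) and -0.13 ± 0.38 (0.881), at levels between 11.09 and 12.06 in the 6 arrays. Krt13 and Krt77, of stratified epithelium, also missed the threshold, with differences of 2.24 and 1.86. Without distal 3, 11 of the keratins were called.

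Transcription factors of epithelium were mostly higher distally, 12 of 20 tested against 1 lower, and 8 higher without distal 3. Grhl3, required for the epidermal barrier, differed by 3.03 ± 0.27 (adjusted p = 7.5e-07). Trp63, the p63 gene that maintains stratified epithelium, read 11.51, 11.02 and 11.87 distally and 9.60, 8.19 and 9.38 proximally, 5.31-fold higher (4.8e-05). Tfap2a, which acts in ectoderm and neural crest, was 4.42-fold higher (1.5e-06), and Ovol1, a zinc finger gene of differentiating keratinocytes, differed by 2.12 ± 0.21 (2.52e-06). Pitx1, a homeobox gene of the oral ectoderm and first arch, was the exception: it read 7.78, 8.37 and 7.62 distally and 9.70, 9.26 and 9.49 proximally, a difference of -1.56 ± 0.19 (2.39e-05). The groups did not overlap in Pitx1. Foxa1, Elf3 and Elf5, factors of glandular and airway epithelium, were not called, with differences of 0.37, 0.36 and -0.51.

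**Figure D2:**
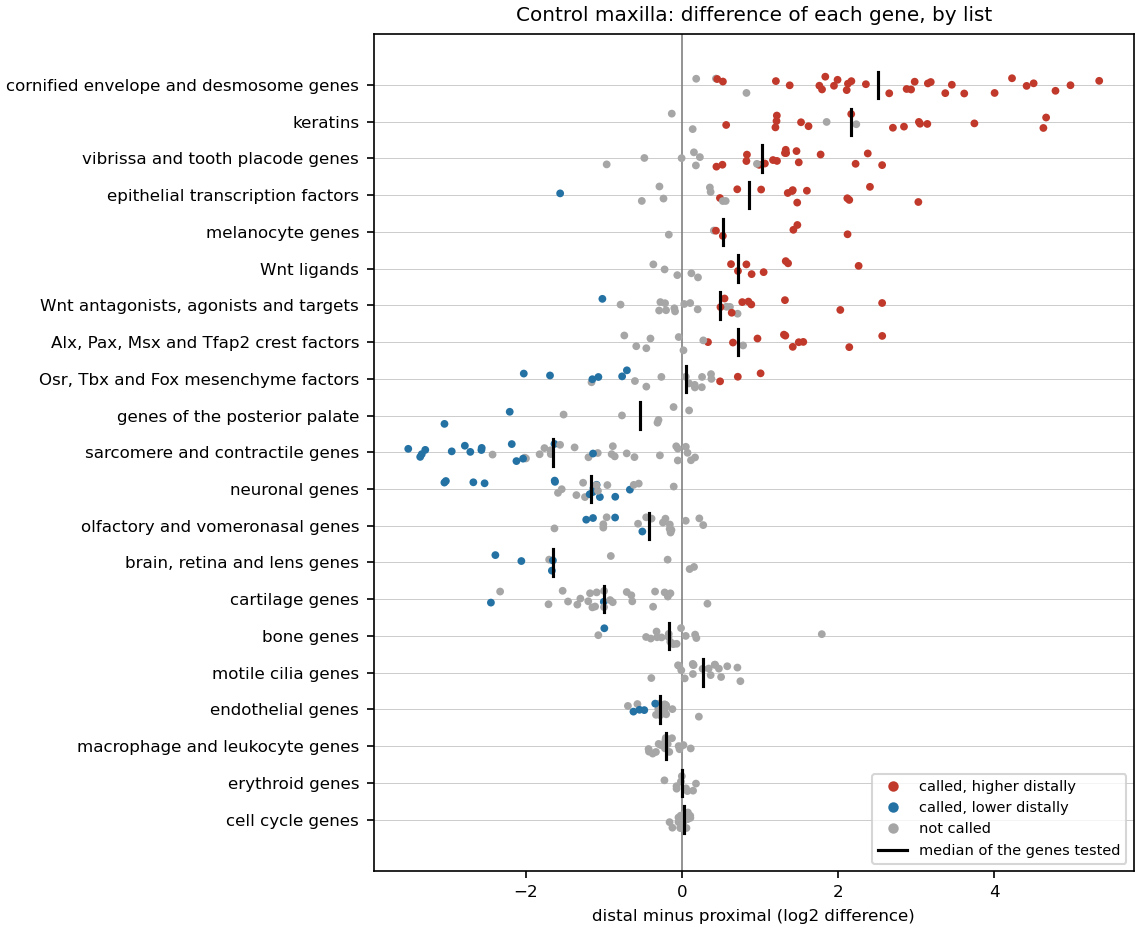
Distal minus proximal log2 difference (x axis) of every tested gene on 21 lists (y axis), with the genes called higher, called lower and not called in different colours and the median of each list as a black bar. The epithelial lists at the top lie mostly to the right of 0, with a median of 2.51 for the cornified envelope and desmosome list, and the sarcomere and neuronal lists lie mostly to the left, with medians of -1.66 and -1.16.

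The promoters of these genes were searched for TGANTCA, the AP-1 motif of Fos and Jun family factors, which act in keratinocyte differentiation. The search covered, on both strands, the 250 bases before each gene's start in RefSeq (build GRCm38.p6). Of the 29 called cornified envelope and desmosome genes, 17 had a promoter in that table, in 19 windows, and 5 of these windows (26.3%) held the motif, against 6.75% of all 32851 windows. They belonged to Sprr1a, Sprr1b, Lor, Krtdap and Sbsn. Of 8 windows of called keratins, 0 held it. These shares come from few windows, and no test was run on them. The windows of Sprr1a (chr3:92485882-92486131, minus strand) and Krt10 (chr11:99389365-99389614, minus strand) are shown as a leading distal gene with the motif and one without, 5′ to 3′, with matches in capitals.
Sprr1a: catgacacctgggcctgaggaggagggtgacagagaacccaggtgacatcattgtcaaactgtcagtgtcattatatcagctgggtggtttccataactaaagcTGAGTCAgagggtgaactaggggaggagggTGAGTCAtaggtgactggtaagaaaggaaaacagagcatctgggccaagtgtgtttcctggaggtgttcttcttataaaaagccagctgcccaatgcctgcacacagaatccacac
Krt10: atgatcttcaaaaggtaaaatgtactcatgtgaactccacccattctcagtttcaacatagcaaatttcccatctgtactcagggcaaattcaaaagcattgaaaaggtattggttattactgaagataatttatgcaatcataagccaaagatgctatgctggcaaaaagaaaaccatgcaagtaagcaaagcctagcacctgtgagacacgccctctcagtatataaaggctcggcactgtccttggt
The Sprr1a window holds 2 matches, which begin 146 and 116 bases before the start. A match describes the letters of the window and was not tested as a binding site.

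Genes of the placodes that form whiskers and teeth were also higher distally. Of 24 tested, 17 were higher and 0 lower, with a median of 1.03. Dkk4, a secreted Wnt antagonist of early placodes, read 8.13, 8.35 and 8.82 distally and 5.78, 5.85 and 5.97 proximally (2.57 ± 0.31, adjusted p = 1.45e-05). Sostdc1, a BMP and Wnt antagonist that limits the number of teeth, was 5.21-fold higher (7.54e-06), and Trps1, a zinc finger gene of hair follicles and cartilage, 3.43-fold (3e-05). Edaradd, the adaptor of the ectodysplasin receptor, and Edar, the receptor, were higher by 1.34 ± 0.23 and 1.06 ± 0.17. These calls held with every single array left out. Shh, the ligand made by placodes and palatal rugae, read 9.91, 8.96 and 10.28 distally and 9.30, 6.24 and 6.91 proximally. Its groups overlapped, and its call (2.23 ± 0.68, 0.0408) ended without distal 1, distal 3, proximal 2 or proximal 3 (adjusted p up to 0.192). Fgf3, Fgf4 and Fgf20, ligands of tooth and hair placodes, were not called, with differences from -0.48 to 0.18.

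Of 7 melanocyte genes tested 5 were higher distally and 0 lower, but the count was 0 without distal 3, 1 without proximal 1, 2 without proximal 3 and 3 without distal 1 or distal 2. Dct, a melanin synthesis enzyme gene, read 10.10, 9.87 and 10.73 distally and 7.56, 8.76 and 8.02 proximally (2.12 ± 0.53, adjusted p = 0.0123). The groups of Dct lay apart, and its call ended without distal 3 or proximal 1 (adjusted p up to 0.083).

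Wnt ligands were higher distally in 8 of 13 tested and lower in 0, with a median of 0.72. Wnt5a, a noncanonical ligand needed for facial outgrowth, read 12.80, 12.58 and 12.52 distally and 10.49, 9.87 and 10.75 proximally, 4.81-fold higher (2.27 ± 0.20, adjusted p = 7.5e-07). The groups lay apart by more than the range within either. The ectodermal ligands Wnt6 and Wnt10a were 2.57-fold (4.45e-05) and 2.52-fold (0.000279) higher, and Wnt16 2.07-fold (0.000202). Wnt5b, Wnt7a and Wnt9a were not called, with differences from -0.37 to 0.21. Of 23 antagonists, agonists and targets of the pathway, 9 were higher and 1 lower. Apcdd1, a membrane inhibitor of Wnt signalling that is itself a target, read 12.34, 12.35 and 12.82 distally and 10.14, 10.57 and 10.71 proximally, 4.09-fold higher (7.13e-07). Lef1, the nuclear partner of beta-catenin, read 10.65, 10.40 and 10.49 distally and 9.16, 9.11 and 9.30 proximally, 2.5-fold higher (7.13e-07). In both genes the 3 distal arrays lay above the 3 proximal ones. The feedback target Axin2 was 1.46-fold higher (0.00444), and Nkd1 and Nkd2, inhibitors induced by the pathway, differed by 0.85 ± 0.12 and 0.77 ± 0.11. Sfrp1, a secreted Frizzled-related inhibitor, was 2.02-fold lower distally (0.00663), a call that ended without distal 3 (-0.89, adjusted p = 0.0528). The R-spondin gene Rspo3 and the target Lgr5 were not called, with differences of -0.29 and -0.28.

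Crest transcription factors of the Alx, Pax, Msx, Twist and Tfap2 families were higher distally in 10 of 18 tested and lower in 0. Twist2, a gene of dermal and osteoblast precursors, read 11.38, 11.47 and 11.55 distally and 8.67, 8.99 and 9.04 proximally, 5.92-fold higher (2.57 ± 0.29, adjusted p = 7.54e-06). The groups lay far apart, with little spread in either. Its widely expressed relative Twist1 was 1.57-fold higher (3.01e-05), Msx2, a homeobox gene of facial and tooth mesenchyme, 2.82-fold (0.000209), and Pax3, a gene of crest and muscle precursors, 2.48-fold (0.00735). Pax7, a relative of Pax3, was 2.94-fold higher (0.00836), a call that ended without proximal 1 (1.26, adjusted p = 0.062). Prrx1, a general gene of limb and facial mesenchyme, and Pax9, a gene of tooth and palate mesenchyme, were not called, with differences of 0.02 and -0.04. Osr1, an odd-skipped factor of craniofacial mesenchyme, read 11.17, 10.93 and 11.14 distally and 9.75, 10.56 and 9.90 proximally (1.01 ± 0.23, 0.00675). Its distal arrays were close together and above every proximal array. Pou3f3, a POU factor of the maxillary arch, was higher by 1.64 ± 0.37 (0.00704), a call that ended without proximal 2 (1.29, adjusted p = 0.0507).

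Among 11 genes known for the front of the palate 3 were higher distally and 0 lower: Msx1, Bmp4 and Alx4. The call of Msx1 (1.33 ± 0.36, adjusted p = 0.0205) ended without distal 1 or proximal 2 (adjusted p up to 0.123), that of Bmp4 ended without any array but distal 3 (adjusted p up to 0.1), and that of Alx4 ended without any 1 of the 6 arrays (adjusted p up to 0.132). The number higher was 0 without distal 1 or proximal 2 and 1 without distal 2 or proximal 3. Shox2, the homeobox gene of the anterior palate, read 10.87, 10.62 and 10.48 distally and 10.13, 9.16 and 9.84 proximally. Its groups did not overlap, but the difference of 0.95 ± 0.33 was not called (0.0697). Among 8 genes known for the back of the palate 2 were lower distally, Tbx22 and Barx1, and 0 higher, and the number lower was 4 without proximal 3. Tbx22, a T-box gene required for palatal bone, read 6.69, 7.17 and 5.74 distally and 9.53, 10.21 and 8.99 proximally, 8.23-fold lower (-3.04 ± 0.53, 0.000756). Barx1, a homeobox gene of proximal arch mesenchyme and molar sites, read 7.22, 8.39 and 7.52 distally and 10.44, 9.65 and 9.65 proximally, 4.61-fold lower (-2.21 ± 0.36, 0.000449). In both genes every distal array lay below every proximal one, and the calls held with each array left out. Meox2 and Sim2, also genes of the posterior palate, were not called, with differences of -0.77 and -1.52.

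On the list of Osr, Tbx and Fox factors 3 of 21 were higher distally and 6 lower. The number higher was 1 without distal 3 or proximal 1, and the number lower 2 without distal 3 and 3 without proximal 2. Foxp2, a forkhead gene of brain and facial mesenchyme, read 9.09, 9.59 and 8.51 distally and 11.13, 11.53 and 10.61 proximally, 4.07-fold lower (-2.03 ± 0.34, adjusted p = 0.00049). The groups lay apart and the call held throughout. Foxc2 and Foxc1, forkhead genes of the mesenchyme around the eye and skull, differed by -1.69 ± 0.47 (0.0237) and -1.15 ± 0.37 (0.0499). The call of Foxc2 ended without distal 3, proximal 1 or proximal 2 (adjusted p up to 0.184), and that of Foxc1 ended without any array but distal 2 (adjusted p up to 0.309). Of 17 arch factors of the Dlx, Hand and Lhx families and their neighbours, 2 were higher and 3 lower. The higher ones numbered 1 without distal 3, proximal 1, proximal 2 or proximal 3, and the lower ones 1 without proximal 1 and 5 without distal 2. Hand2, a factor of the lower arch, differed by -1.53 ± 0.36 (0.00841), a call that ended without proximal 1 (-1.36, adjusted p = 0.0504). Its distal mean of 5.52 lay in the background. Its dimmer probe sets, in the background at both ends, differed by 0.023 and 0.017. With the mean of probe sets the call also ended (-0.50, adjusted p = 0.0829). Dlx1, a homeobox gene of the whole arch, differed by -1.61 ± 0.40 (0.0115), a call that ended without proximal 1 (-1.27, adjusted p = 0.0813). Dlx5, which specifies the lower arch, had means of 10.54 ± 0.20 (SD, n = 3) distally and 10.49 ± 0.26 proximally and was not called. Of 6 Hox genes, limma called 0 (1 at an unadjusted p under 0.05).

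**Figure D3:**
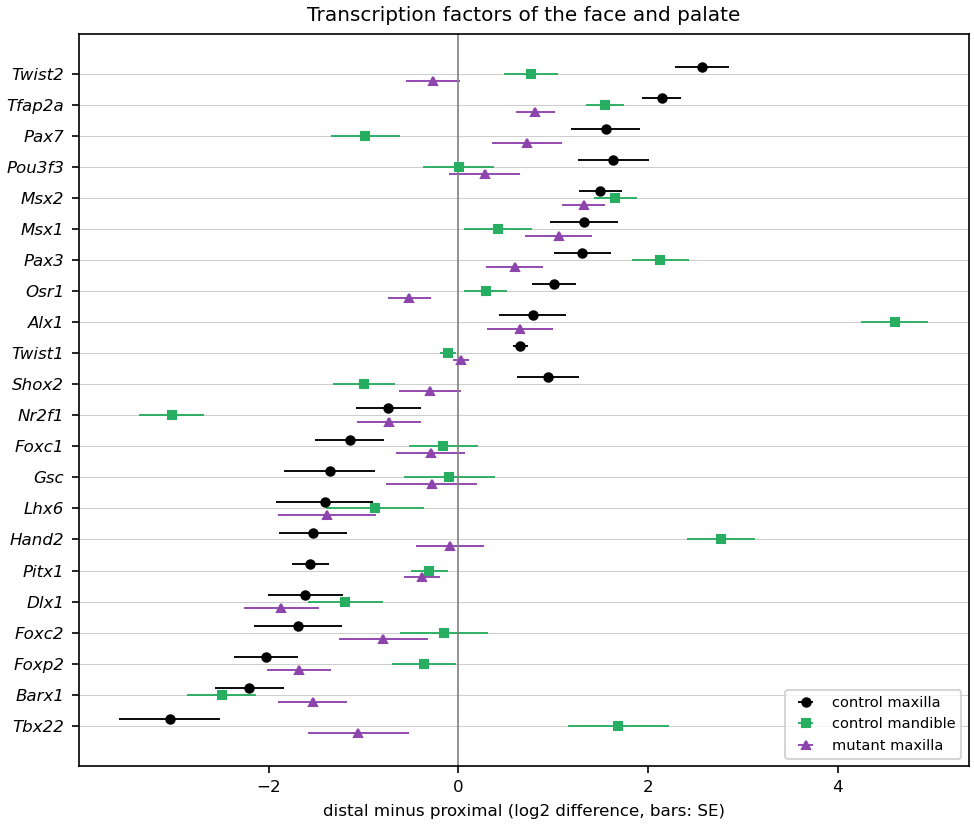
Distal minus proximal log2 difference with its standard error (x axis) of 22 transcription factors (y axis) in the control maxilla, the control mandible and the mutant maxilla, each drawn with its own symbol and with 3 arrays per end. In the control maxilla the values run from 2.57 for Twist2 to -3.04 for Tbx22, and the mandible lies far from the maxilla for Alx1, Hand2, Tbx22 and Nr2f1.

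Genes of the muscle sarcomere were lower distally, with wide variation among the proximal arrays. Of 38 sarcomere and contractile genes tested, 14 were lower and 0 higher, with a median of -1.66. Their mean level was 6.80, 6.66 and 7.23 in distal arrays 1 to 3 and 8.22, 9.44 and 7.67 in proximal arrays 1 to 3. Proximal 2 was the highest and proximal 3 the closest to the distal arrays. Without proximal 2, 3 of the genes were called, with a median of -1.03, and without proximal 1, 8. Without distal 1 or distal 2, 9 were called. Myh8, the perinatal myosin heavy chain, read 4.21, 4.83 and 4.79 distally and 7.72, 9.51 and 6.67 proximally (-3.35 ± 0.73, adjusted p = 0.00514), and its call held with each array left out. Myh3, the embryonic myosin heavy chain, read 7.77, 6.78 and 8.82 distally and 11.02, 12.43 and 9.78 proximally (-3.29 ± 0.78, 0.00919). Both genes were chosen among those whose groups lay apart. In both, proximal 2 was at the top, and the call of Myh3 ended without proximal 2 (-2.61, adjusted p = 0.0613). The calls of Ttn, the giant spring of the sarcomere (-3.33), the myosin light chain genes Myl1 (-2.95) and Myl4 (-2.71), the skeletal actin gene Acta1 (-2.78) and Tceal7 (-2.80) also ended without proximal 2. Eno3, the muscle enolase, was 2.2-fold lower (0.000645), which held throughout. Of 20 genes of excitation-contraction coupling and the muscle synapse, 2 were lower and 0 higher, with a median of -0.44. Over all genes tested 5.99% were lower. The lower ones of this list numbered 0 without distal 1, distal 3 or proximal 2 and 1 without proximal 1. Among 19 regulators of the lineage 0 were lower and 3 higher, the latter being Pax7, Pax3 and Tbx1, which also act in crest or arch tissue. The call of Tbx1 (1.22 ± 0.31, 0.0132) ended without distal 3 or proximal 2 (adjusted p up to 0.0875), and without proximal 3 the number of regulators lower was 1. Myog, which drives muscle differentiation, differed by -1.27 ± 0.70 (0.28) and Myod1, which commits cells to muscle, by -0.18 ± 0.60 (0.902), and neither was called. How much muscle each piece held was not tested.

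The same promoter windows were searched for CAGCTG, an E-box bound by myogenic helix-loop-helix factors, which reads the same on both strands. Of the 14 called sarcomere genes 11 were in the table, in 13 windows, and 3 windows (23.1%) held it, against 13.0% of all windows. It was also in 2 of 10 windows of called neuronal genes (20.0%) and in 2 of the 19 windows of cornified envelope and desmosome genes (10.5%). Among the latter, the Sprr1a window, printed above with only TGANTCA in capitals, held 2 matches. TGANTCA was in 2 of the 13 sarcomere windows (15.4%), both of the same gene, Ldb3, against 6.75% of all windows. The shares rest on few windows and were not tested. The 3 sarcomere windows with the E-box are those of Myl1 (chr1:66945057-66945306, minus strand), Acta1 (chr8:123894776-123895025, minus strand) and the fast light chain gene Mylpf (chr7:127211358-127211607, plus strand), shown 5′ to 3′ with the E-box in capitals.
Myl1: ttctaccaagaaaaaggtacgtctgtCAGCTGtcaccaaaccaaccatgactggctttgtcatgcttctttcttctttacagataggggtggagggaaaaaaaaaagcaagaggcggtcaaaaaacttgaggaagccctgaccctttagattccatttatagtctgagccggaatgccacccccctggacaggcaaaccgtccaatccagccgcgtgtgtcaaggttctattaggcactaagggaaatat
Acta1: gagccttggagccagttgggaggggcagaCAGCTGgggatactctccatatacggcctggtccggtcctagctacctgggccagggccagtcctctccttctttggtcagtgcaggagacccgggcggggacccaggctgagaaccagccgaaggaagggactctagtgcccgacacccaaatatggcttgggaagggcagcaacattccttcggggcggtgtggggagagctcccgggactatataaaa
Mylpf: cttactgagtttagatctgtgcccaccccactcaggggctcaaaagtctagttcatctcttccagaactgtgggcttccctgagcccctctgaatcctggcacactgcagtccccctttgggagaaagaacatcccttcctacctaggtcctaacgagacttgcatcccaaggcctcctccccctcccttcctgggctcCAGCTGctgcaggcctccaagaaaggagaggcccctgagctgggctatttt
The E-box begins 224 bases before the start in Myl1, 221 in Acta1 and 51 in Mylpf. Mylpf differed by -2.57 ± 0.70 (adjusted p = 0.0223), a call that ended without distal 1, distal 2, proximal 1 or proximal 2 (adjusted p up to 0.123).

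Neuronal genes were lower distally in 13 of 24 tested and higher in 0, with a median of -1.16. Their mean level was 8.55, 8.75 and 8.31 in distal arrays 1 to 3 and 10.47, 9.84 and 9.42 in proximal arrays 1 to 3. Every proximal array lay above every distal one, and proximal 1 was the highest. Nefl, the light neurofilament chain, read 7.89, 7.98 and 7.72 distally and 12.52, 11.51 and 8.68 proximally, 8.23-fold lower (-3.04 ± 0.62, adjusted p = 0.0028). Ret, a receptor for GDNF family ligands in sensory and autonomic neurons, read 6.60, 6.82 and 5.66 distally and 10.17, 9.43 and 7.49 proximally (-2.67 ± 0.45, 0.000523). In both genes the groups lay apart, with proximal 3 nearest the distal arrays. Uchl1, a neuronal deubiquitinase, was 3.09-fold lower (0.00417). These 3 calls held with each array left out, but that of Nefl ended when only the 6 arrays were fitted (adjusted p = 0.0755). The call of Nefm, the medium neurofilament chain (-3.02), ended without distal 3, proximal 1 or proximal 2 (adjusted p up to 0.0916), and that of Prph, a filament of peripheral neurons (-2.53), ended without distal 3 or proximal 1 (adjusted p up to 0.0687). A pair of dimmer probe sets of Prph had differences of 0.19 and 0.24. Tubb3 and Stmn2, expressed by neurons in general, differed by -1.54 ± 0.50 (0.0556) and -0.95 ± 0.39 (0.132) and were not called. Without distal 3, 5 neuronal genes were called, without proximal 1, 5, and without proximal 2, 8.

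Of 9 genes of brain, retina and lens 4 were lower distally and 0 higher. Cryab, a small heat shock protein of lens and muscle, differed by -1.65 ± 0.38 (adjusted p = 0.00751), which held throughout. Pax6, the eye and forebrain factor, differed by -1.67 ± 0.44 (0.019), a call that ended without distal 3 or proximal 2 (adjusted p up to 0.157). The number of these genes called was 1 without distal 3 or proximal 2 and 2 without proximal 1. Of 20 olfactory and vomeronasal genes 4 were lower and 0 higher, and the number called was 0 without distal 3 or proximal 1, 1 without distal 1 and 2 without proximal 2 or proximal 3. Omp, the marker of mature olfactory neurons, differed by -0.21 ± 0.29 (0.721). Of 15 Schwann and glial genes 3 were lower and 1 higher. The lower ones numbered 1 without distal 3 and 5 without proximal 3, and the higher ones 0 without distal 1, distal 3, proximal 1 or proximal 3. Ednrb, the endothelin receptor of crest derivatives, was 1.69-fold lower (0.000862), and Sox10, the defining factor of crest glia, was not called (-0.27 ± 0.16, 0.302).

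Bone, the tissue named in the labels, was represented at both ends. Of 17 bone genes 1 was lower distally and 0 were higher. Ibsp, bone sialoprotein, read 12.59, 11.15 and 13.09 distally and 12.79, 11.87 and 13.13 proximally (-0.32 ± 0.65, adjusted p = 0.827). Its groups overlapped and all arrays lay far above background. Sp7, the osteoblast factor osterix, had means of 9.58 ± 0.29 (SD, n = 3) distally and 9.75 ± 0.43 proximally, and Alpl, a phosphatase of mineralising cells, 10.41 ± 0.28 (SD, n = 3) distally and 10.24 ± 0.49 proximally. The called gene was Cthrc1, which encodes a secreted collagen-modifying protein (-0.99 ± 0.27, 0.0229), and its call ended without distal 3, proximal 1 or proximal 2 (adjusted p up to 0.187). Of 13 osteoclast genes limma called 0 (0 at an unadjusted p under 0.05).

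Cartilage genes were high in every array except distal 3. Their mean level over 26 genes was 10.87, 11.36 and 9.16 in distal arrays 1 to 3 and 11.41, 11.44 and 11.49 in proximal arrays 1 to 3. Of these genes 2 were lower distally, Comp and Chad, and 0 higher, with a median of -0.999 that became -0.29 without distal 3 and -1.47 without distal 2. The lower genes numbered 0 without distal 3, 1 without distal 1, proximal 1, proximal 2 or proximal 3 and 6 without distal 2. The call of Chad, a matrix protein of cartilage (-1.0 ± 0.31, adjusted p = 0.0431), ended without any array but distal 2 (adjusted p up to 0.31). Col2a1, the main cartilage collagen, read 13.38, 13.81 and 11.30 distally and 13.95, 13.86 and 13.95 proximally (-1.09 ± 0.58, adjusted p = 0.265). Matn1, a matrilin of cartilage, read 12.10, 12.73 and 9.49 distally and 13.12, 13.33 and 12.98 proximally (-1.71 ± 1.02, 0.327). In both genes distal 3 was far below the other 5 arrays, and neither was called. Comp, a matrix protein of cartilage and tendon, differed by -2.45 ± 0.61 (0.0132), a call that ended without distal 3 (-1.56, adjusted p = 0.113). Of 14 tendon genes 3 were lower distally and 0 higher, and the number lower was 1 without proximal 2. Scx, the factor of tendon progenitors, read 6.53, 6.91 and 5.91 distally and 7.55, 7.67 and 7.34 proximally (-1.07 ± 0.19, 0.000873). Its groups lay apart and its call held throughout, whereas that of Thbs4, a tendon matrix gene (-1.54), ended without proximal 2 (-1.33, adjusted p = 0.0584).

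**Figure D4:**
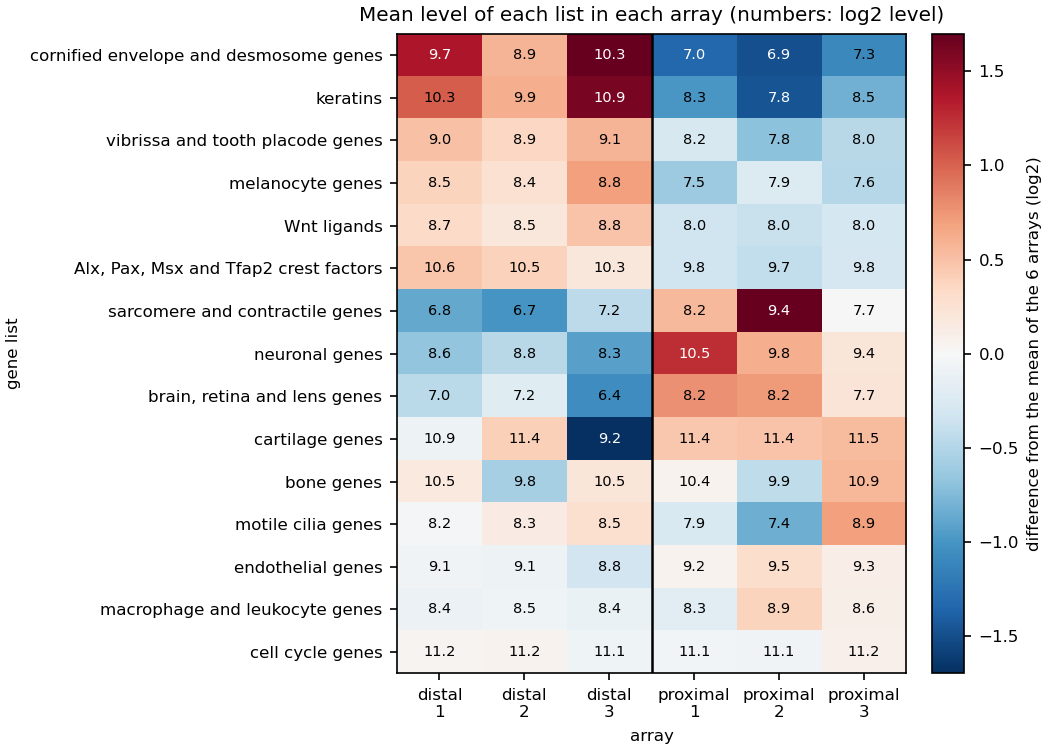
Mean log2 level of gene lists (y axis) in each of the 6 arrays (x axis), printed in the cells, with colour showing the difference from the mean of the 6 arrays. Distal 3 has the highest cornified envelope level (10.32) and the lowest cartilage level (9.16), proximal 2 the highest sarcomere level (9.44) and proximal 1 the highest neuronal level (10.47).

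Genes of nasal epithelium were expressed at both ends. Of 15 secretory genes 2 were higher distally, Aldh1a1 and Aldh3a1, and 0 lower. The number higher was 1 without distal 3, proximal 1 or proximal 2 and 4 without proximal 3, and the number lower 1 without distal 2. The call of Aldh3a1, an aldehyde dehydrogenase gene (1.30 ± 0.32, adjusted p = 0.0119), ended without distal 3, proximal 1 or proximal 2 (adjusted p up to 0.0788). Bpifa1, a secreted protein of nasal epithelium, read 12.80, 12.98 and 11.88 distally and 12.80, 11.32 and 12.99 proximally (0.18 ± 0.58, adjusted p = 0.892). Its groups overlapped, with proximal 2 the lowest array. Of 19 motile cilia genes limma called 0 (2 at an unadjusted p under 0.05), and the number called higher distally was 1 without distal 1 and 8 without proximal 3. Their mean level was 7.37 in proximal 2 and 8.89 in proximal 3, with the distal arrays between them. Foxj1, the factor of motile ciliated cells, read 9.01, 9.28 and 9.18 distally and 8.77, 7.39 and 10.05 proximally.

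Of 18 endothelial genes 4 were lower distally and 0 higher, with a median of -0.28: Cldn5, a tight junction gene (-0.48 ± 0.13, adjusted p = 0.0233), Tek, the angiopoietin receptor gene (-0.62 ± 0.16, 0.0155), Emcn and Ramp2. Without distal 3 or without proximal 2, 0 of them were called. The call of Ramp2 also ended without distal 1 or proximal 1 (adjusted p up to 0.202 over its 4 fits), and Pecam1, a marker of all endothelium, was not called with all arrays (-0.33 ± 0.14, 0.147). Among 18 macrophage and leukocyte, 9 erythroid and 21 cell cycle genes limma called 0 (0 at an unadjusted p under 0.05 in each list). Mki67, the proliferation marker, had means of 12.04 ± 0.04 (SD, n = 3) distally and 11.98 ± 0.14 proximally. Of 15 hypoxia and glycolysis genes limma called 0 (2 at an unadjusted p under 0.05), and the number called higher was 1 without distal 2 or proximal 3. Of 13 immediate early genes 3 were higher and 2 lower, and the lower ones numbered 0 without distal 3, proximal 1, proximal 2 or proximal 3, 1 without distal 1 and 4 without distal 2. Junb, a member of the AP-1 family, was 1.75-fold higher (0.000356) and held throughout, whereas the call of Jun (-0.48) ended without any array but distal 2 (adjusted p up to 0.188).

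Retinoic acid genes were called in both directions, 4 higher and 3 lower of 16 tested. The higher ones numbered 2 without proximal 1, and the lower ones 1 without distal 3. Aldh1a2, the main retinoic acid-producing enzyme of embryonic mesenchyme, read 9.08, 9.30 and 8.85 distally and 10.84, 10.67 and 10.29 proximally, 2.88-fold lower (-1.53 ± 0.16, adjusted p = 3.78e-06). Its groups lay apart and the call held throughout. Rarb, a receptor gene that retinoic acid induces, was 2.52-fold lower (0.00693), a call that ended without distal 3 (-0.94, adjusted p = 0.0654). Aldh1a1, a related enzyme of epithelia, was 4.69-fold higher (0.0038), which held throughout. The call of Aldh1a1 ended, however, when limma was fitted with only the arrays compared (adjusted p = 0.0565). Cyp26b1, which breaks retinoic acid down, was 1.69-fold higher (0.0326), a call that ended without any array but distal 3 (adjusted p up to 0.125).

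Over all genes tested 4.9% were higher distally and 5.99% lower, and the counts of the signalling lists stand beside these shares. BMP genes gave 3 higher and 2 lower of 22. Beside Sostdc1 and Bmp4, the ligand gene Bmp7 was 1.42-fold higher (adjusted p = 0.000368), and the lower genes were Gdf10, a ligand of the family (-0.73), and Id4, a target (-0.60). The call of Gdf10 ended without distal 3 or proximal 2 (adjusted p up to 0.0726) and that of Id4 without distal 3, proximal 1 or proximal 2 (adjusted p up to 0.164). The number of lower BMP genes was 0 without distal 3 or proximal 2, 1 without proximal 1 and 5 without distal 2. FGF genes gave 2 higher and 5 lower of 25, and the number lower was 1 without distal 3, 2 without proximal 1 and 3 without proximal 2. Fgfbp1, an epithelial carrier that releases FGFs, differed by 2.18 ± 0.38 (0.000687) and the receptor gene Fgfr2 by 0.52 ± 0.09 (0.000762). In the other direction Fgf12, an intracellular family member of neurons, differed by -1.25 ± 0.26 (0.00388). These 3 calls held throughout, and the feedback genes Spry1 and Spry4 were not called, with differences of -0.20 and -0.28. Hedgehog genes gave 3 higher and 1 lower of 18, and the number lower was 2 without distal 1 or proximal 3. Beside Shh these were the effector Gli2 (0.48 ± 0.07, 0.000135), the coreceptor gene Gas1 (0.29 ± 0.06, 0.00361) and Dhh, the ligand of Schwann cells (-0.69 ± 0.13, 0.00179). The distal mean of Dhh (6.22) lay in the background, and its other probe set differed by -0.16. Ptch1, the receptor gene that the pathway induces, was not called (0.16 ± 0.22, 0.711).

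Axon guidance genes gave 4 higher and 0 lower of 31, beside 10.9% of all genes tested called in either direction. Sema3e, a secreted semaphorin, was 2.16-fold higher (adjusted p = 0.000124), Sema3d, another, 1.75-fold (0.00127), Efnb2, a transmembrane ephrin, 1.64-fold (1.47e-05) and Efna5, a membrane-anchored ephrin, 1.43-fold (0.00265). These calls held with each array left out, but that of Efna5 ended when limma was fitted with only the arrays compared (adjusted p = 0.05). The number lower was 1 without proximal 3 and 2 without distal 2. TGF-beta genes gave 0 higher and 3 lower of 22, and the number lower was 0 without distal 3, proximal 1 or proximal 2 and the number higher 1 without distal 1 or proximal 1. The called genes were the ligand Tgfb3 (-0.57), the matricellular target Ccn1 (-0.54) and Tgfbr1, the gene deleted in the mutants (-0.31). The call of Tgfb3 ended without distal 3, proximal 1 or proximal 2 (adjusted p up to 0.145), that of Ccn1 without distal 1, distal 3, proximal 1 or proximal 2 (adjusted p up to 0.227) and that of Tgfbr1 without distal 3, proximal 1, proximal 2 or proximal 3 (adjusted p up to 0.182). Notch genes gave 2 higher and 4 lower of 19, and the number higher was 0 without distal 3 and 1 without distal 1, proximal 1, proximal 2 or proximal 3 and the number lower 0 without distal 3 and 2 without distal 1, proximal 1 or proximal 2. The epithelial, muscle and neuronal lists differed between the same arrays, and their part in the results for the signalling genes was not tested.

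The same contrast was set against that in the control mandible to show where the maxilla differed. In the mandible 760 genes (5.45%) were called, 406 (2.91%) higher and 354 (2.54%) lower distally. Of the 683 genes higher in the distal maxilla, 599 had the same sign in the mandible, where 192 were called higher distally and 5 lower. Of the 835 lower genes, 611 had the same sign in the mandible, where 68 were called lower and 12 higher. The difference of the differences, maxilla minus mandible, was called for 309 genes (2.22%), 165 (1.18%) with a higher and 144 (1.03%) with a lower value in the maxilla, and 197 of them were also called in the maxilla itself. This count was 460 without maxilla distal 2 and 403 without maxilla proximal 3, and between 149 and 198 without any other of the 12 arrays. With the replicate number as a block it was 690 (random) or 694 (fixed); same-numbered ends of the mandible deviated together (correlations of 0.681, 0.329 and 0.501), those of the maxilla less so (0.373, 0.137 and 0.0307).

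Cornified genes led the genes with the higher value in the maxilla. Hrnr, a filaggrin-type protein, differed between the ends by 4.77 in the maxilla and 0.17 in the mandible, a difference of 4.60 ± 0.78 (adjusted p = 0.00378). Serpinb2, a serpin of keratinocytes, differed by 4.41 and 0.32 (4.09 ± 0.35, 2.67e-06), and Sprr1a by 4.98 and 1.37 (3.61 ± 0.63, 0.00495). Of the 32 cornified envelope and desmosome genes 10 had a called difference of this kind and 0 the opposite, and of the 19 keratins 3 and 0. The count of 10 was 16 without maxilla distal 2, 11 without maxilla proximal 3 and between 3 and 6 without any other of the 12 arrays, with 3 without maxilla distal 3, maxilla proximal 2 or mandible distal 1. The keratin count was 4 without maxilla distal 2 or maxilla proximal 3 and between 0 and 2 without any other. The differences between the jaws of Dsg1a and Dsc1 were called in 3 of these 12 fits. For Krt14, Krt5 and Trp63 the difference between the jaws was not called (adjusted p = 0.364, 0.0887 and 0.422). Apcdd1 (1.34 ± 0.26, 0.00864), Dkk4 (2.70 ± 0.43, 0.00271) and Trps1 (1.60 ± 0.32, 0.0114) also had the higher value in the maxilla. For Wnt5a the difference was 0.66 ± 0.29 (0.331).

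Patterning factors were among the genes with the lower value in the maxilla. Tbx22 differed by -3.04 in the maxilla and 1.69 in the mandible, where it was not called (adjusted p = 0.074), and the difference between the jaws was -4.73 ± 0.75 (0.00264). Hand2 differed by -1.53 in the maxilla and 2.77 in the mandible (-4.30 ± 0.51, 0.000138). Alx1, a homeobox gene of facial crest, differed by 0.79 and 4.60 (-3.82 ± 0.50, 0.000337). Hand2 and Alx1 were thus called higher in the distal mandible. Isl1, a LIM homeobox gene of the lower jaw and of sensory neurons, differed by -0.55 and 3.39 (-3.95 ± 0.56, 0.000945), and Ret by -2.67 and 0.88 (-3.55 ± 0.64, 0.0058). The 8 leading genes in each direction of this comparison, these and Sprr1a, Hrnr and Serpinb2 included, kept their call with each of the 12 arrays left out. Barx1 and Shisa3 were called lower distally in both jaws, with differences of -2.21 in the maxilla and -2.49 in the mandible for Barx1, and of -3.14 and -2.68 for Shisa3. Their differences between the jaws were not called (0.29 ± 0.52 and -0.46 ± 0.60).

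**Figure D5:**
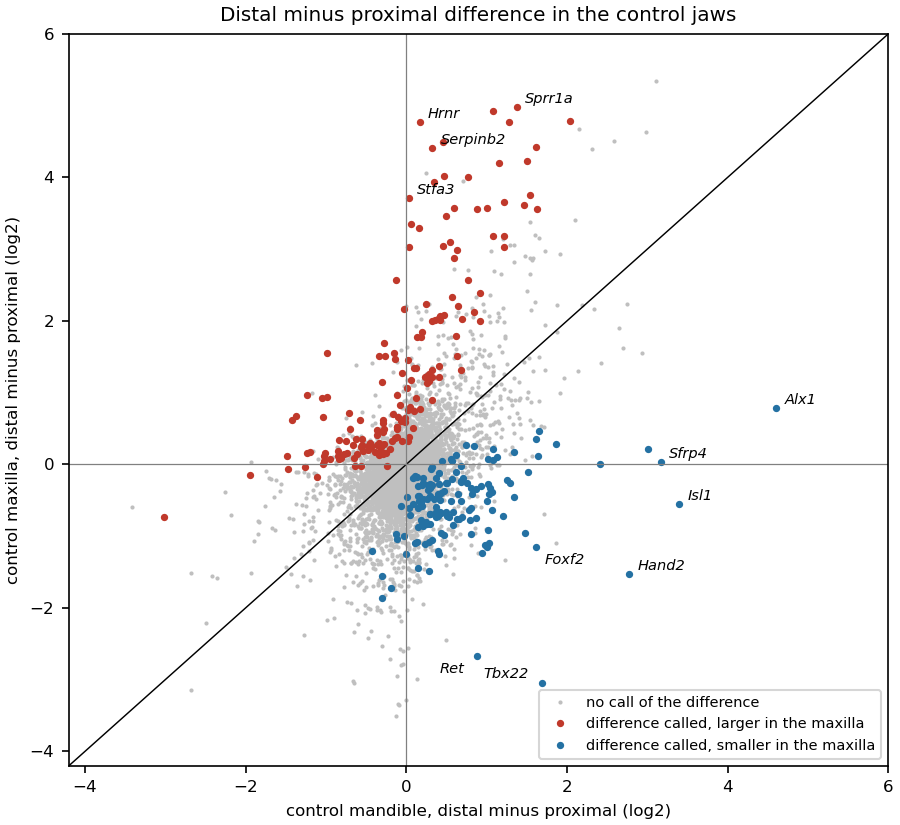
Distal minus proximal log2 difference of the 13942 genes tested in the control mandible (x axis) and the control maxilla (y axis), with the 165 genes called higher and the 144 called lower in maxilla minus mandible in different colours. Hrnr and Serpinb2 lie high in the maxilla (4.77 and 4.41) and near 0 in the mandible, and Alx1 and Hand2 lie at the right, at 4.60 and 2.77 in the mandible.

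In the mutant maxilla 173 genes (1.24%) were called between the ends, 113 (0.811%) higher and 60 (0.43%) lower distally. Of the 683 genes higher in the distal control maxilla, 624 had the same sign in the mutant, where 76 were called higher and 1 lower. Of the 835 lower genes, 717 had the same sign there, with 44 called lower and 0 higher. A shared sign is not a call. The difference between control and mutant was called for 28 genes (0.201%), 24 (0.172%) with a higher and 4 (0.0287%) with a lower value in the control, and 26 of them were also called in the control maxilla. Of the mutant arrays, distal 3 correlated better with the mutant distal mandible (0.9903) than with its own group (0.9898), and proximal 3 with the mutant proximal mandible (0.9913) than with its own group (0.9882). Arrays 1 and 3 of both mutant ends also held Xist and Y-linked transcripts together, as in distal 1 with Xist at 11.15 and Eif2s3y at 9.72, unlike the control arrays. The count of 28 became 382 without mutant distal 3, 14 without mutant proximal 3 and 213 without both. Without control distal 1, 2 and 3 it was 13, 133 and 11, without control proximal 1 and 2 it was 17 and 16, without mutant distal 1 and 2 it was 16 and 14, and without mutant proximal 2 it was 53. Same-numbered ends of the mutant maxilla deviated together (correlations of 0.600, 0.687 and 0.740), and fitting that number as a random or a fixed block gave 116 or 136 genes.

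Twist2 differed between the ends by 2.57 in the control and -0.27 in the mutant, a difference of 2.83 ± 0.41 (adjusted p = 0.00307). Lef1 differed by 1.32 and 0.15 (1.17 ± 0.16, 0.00307), and Apcdd1 by 2.03 and 0.24 (1.79 ± 0.26, 0.00307). In these 3 genes the mutant values of the 2 ends lay close together. Krt1 differed by 4.63 and 0.91 (3.73 ± 0.58, 0.00775). Pax1, a paired-box gene of skeletal and pharyngeal tissue, differed by 0.93 and -1.50 (2.43 ± 0.40, 0.01). Vgll3, a cofactor of TEAD factors, and Cxcl14, a chemokine of epithelium, had differences between the genotypes of 2.31 ± 0.39 (0.0111) and 3.53 ± 0.59 (0.0111). The calls of Twist2, Lef1, Apcdd1, Krt1 and Pax1 held with each of the 12 arrays left out, and those of Vgll3 and Cxcl14 ended only without control distal 3 (adjusted p = 0.052 for each). Of the 38 sarcomere genes 4 were lower distally in the mutant, with a median of -1.87, and 0 had a called difference between the genotypes.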

How the data were processed

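Total RNA of 24 samples was hybridised to single-colour mouse oligonucleotide arrays. The deposited values are log2 signals normalized by the authors with RMA, per the submitters' processing notes, with no version named. That the scale is log2 was inferred from the values, which lie between 3.29 and 14.86. The number of arrays limits the precision.

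Of 45101 probe sets, 34945 had 1 gene symbol in the array annotation, 932 several and 9160 none, and 64 were controls. A RefSeq table (GRCm38.p6) matched 34741 by gene identifier, with 0 symbols altered. A gene (18193 in all) was represented by the probe set that was brightest on average over the 24 arrays, and 13942 genes whose level exceeded an array's 40th percentile on 3 or more arrays were tested. limma 3.58.1 (R 4.3.3) fitted 8 group means to the 24 arrays, with trended eBayes and Benjamini-Hochberg adjustment over the genes tested. Adjusted p under 0.05 was the threshold, and the tests are two-sided. Errors are standard errors of the fit unless marked SD. A simulation drew independent normal values for 13942 genes, with 1 spread per gene pooled over the 8 groups. With 100 genes changed by 1 and 100 by 2 on the log2 scale, it recovered 90% and 100%, with 7 false calls. It held no outlying arrays and no wider spread in the maxilla, so these rates cannot be carried over to the real comparison. Plots were drawn with matplotlib 3.10.9 in Python 3.11.15, and tables with numpy 2.4.6 and pandas 2.3.3.

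Named genes were the 15 with the largest called, non-overlapping differences in each direction, the 5 of each list with the largest moderated t, the 8 leading genes in each direction of the 2 comparisons of differences, and Them5, Sprr1a, Dsg1a, Shisa3 and Tnnc2. Further genes are named where a list is described. The genes and lists were chosen with earlier results of these data known. Alternatives changed the normalization, filter, probe set rule, array weights, arrays fitted, variance prior and replicate block, or left out single arrays.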

Additional observations from a re-analysis of the deposited data

Results flagged for a closer look

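The distal minus proximal difference differed between the control maxilla and the control mandible, by limma's test of the difference itself, for 309 genes. Those with the largest values in favour of the maxilla were Hrnr (4.60), Serpinb2 (4.09), Crct1 (4.03), Dynap (3.85), Stfa3 (3.68), Sprr1a (3.61), Gsta2 (3.59) and Aox4 (3.55). Crct1, Stfa3 and Sprr1a are genes of cornifying epithelium, and Gsta2 and Aox4 encode a glutathione transferase and an aldehyde oxidase. The largest negative values were those of Tbx22 (-4.73), Hand2 (-4.30), Isl1 (-3.95), Alx1 (-3.82), Ret (-3.55), Sfrp4 (-3.14), Qrfpr (-2.79) and Foxf2 (-2.78). In the maxilla itself Sfrp4 differed by 0.03 and Qrfpr by 0.22, so their values came from the mandible. Qrfpr lay in the background at both ends of the maxilla (4.12 distally and 3.90 proximally).

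The difference differed between the control and the mutant maxilla, by the same kind of test, for 28 genes. Positive values, larger in the control, led with Krt1 (3.73), Cxcl14 (3.53), Dsg1a (3.52), Krt15 (2.94), Twist2 (2.83), Krt10 (2.65), Pax1 (2.43) and Vgll3 (2.31). The named negative ones were Fezf2 (-2.26), Reln (-1.13) and Paqr9 (-0.95). In the control maxilla Fezf2 differed by -0.14, with both ends in the background (5.15 distally and 5.30 proximally). With single arrays of the 12 left out, Krt1, Twist2 and Pax1 were called in 12 of 12 fits, Cxcl14 and Vgll3 in 11, Krt15 in 6, Dsg1a, Krt10, Fezf2 and Paqr9 in 4, and Reln in 3.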

How the results depend on the processing

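The count of 1518 genes between the maxilla ends was 841 when limma was fitted to the 6 arrays alone and 449 when a log2 difference of at least 1 was also asked for. It ranged from 699 to 1782 with single arrays left out, and from 1233 to 1650 under the other normalization, filter, probe set, weight and variance settings. The count of 309 between the jaws was 875 with array weights and 625 with only the arrays compared, and ranged from 149 to 460 with single arrays left out. The count of 28 between control and mutant was 94 with array weights and 3 with only the arrays compared, and ranged from 11 to 382 with single arrays left out. It was 213 without mutant replicate 3 at both ends, a choice made after seeing the data. Of 171 called genes that are named or could be named under the rule, 121 kept their call when only the 6 arrays were fitted, and 114 without distal 3. The causes were not tested.

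Replicate numbers were not taken to pair the control maxilla arrays, because only some same-numbered ends deviated together beyond a correlation of 0.1 (0.373, 0.137 and 0.0307) and distal 3 correlated better with proximal 2 (0.0729). Whether they mark the same embryos is not stated, and the sex-linked transcripts matched by number at both ends. In the control mandible these correlations were 0.681, 0.329 and 0.501 and in the mutant maxilla 0.600, 0.687 and 0.740. With the replicate number as a random block the 3 counts were 2292, 690 and 116, and as a fixed block 2229, 694 and 136.

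None of the named genes that were called changed direction under the settings run. Among named genes that were not called, Pax9 was 0.024 with array weights and 0.022 after quantile normalization, and Sfrp4 was -0.091 with array weights. With single arrays left out, values crossed 0 for Alpl (-0.088 to 0.39), Bpifa1 (-0.34 to 0.52), Dlx5 (-0.096 to 0.16), Fezf2 (-0.53 to 0.21), Foxj1 (-0.26 to 1.08), Ibsp (-0.72 to 0.25), Krt18 (-0.26 to 0.093), Krt8 (-0.057 to 0.37), Mki67 (-0.011 to 0.13), Myod1 (-0.45 to 0.24), Omp (-0.42 to 0.077), Pax9 (-0.23 to 0.11), Prrx1 (-0.095 to 0.11), Sfrp4 (-0.24 to 0.32) and Sp7 (-0.40 to 0.023). Differences against a group in the background are limited by the signal of the arrays.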

Other observations

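Some genes outside the lists were chosen after their values were seen. Krt73, Krt79 and Krt25, keratins of hair follicles, were higher distally. Krt73 read 9.44, 9.32 and 9.70 in the distal arrays and 6.25, 6.04 and 6.31 in the proximal ones (3.29 ± 0.53, adjusted p = 0.000343). Krt79 differed by 3.95 ± 0.72 (0.00107), and Krt25 by 4.06 ± 1.02 (0.0132), a call that ended without distal 3. The proximal means of these keratins lay in the background. In the mandible the same contrast gave 0.15 for Krt73, 0.71 for Krt79 and 0.24 for Krt25, none of them called. A missing call in the mandible is not by itself a difference between the jaws. For Krt73 that difference was called (3.138 ± 0.748, adjusted p = 0.0317), but in only 2 of 12 fits with single arrays left out.

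In the other direction, Cyp1b1, a cytochrome P450 gene of the embryonic eye, read 6.72, 7.66 and 7.02 in the distal arrays and 9.56, 9.86 and 9.11 in the proximal ones, 5.19-fold lower distally (adjusted p = 2.3e-05). The neuropeptide genes Grp and Vip were lower by 2.15 ± 0.45 (0.00349) and 1.86 ± 0.21 (8.19e-06), with Vip below background in the 3 distal arrays. The calls of Cyp1b1, Grp and Vip held with each of the 6 arrays left out.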
